A study of Mus musculus with 15 samples.

Results

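The 10 genes described here carry or read out Hippo signalling: the coactivator genes Yap1 and Wwtr1, the kinase genes Lats1 and Lats2, the scaffold gene Sav1, the transcription factor gene Tead1, and the target genes Ccn1, Ccn2, Ankrd1 and Amotl2. They were chosen by name for their known roles and make up 10 of the 55984 genes in the count table. Hepatocytes of adult male wild-type C57BL/6JJcl mice had been stained with Hoechst, a dye that binds DNA, and sorted into 4 populations. 2n-whole held diploid cells and 4n-whole held tetraploid cells irrespective of the number of nuclei. 4n-bottom (lower Hoechst-height) was enriched for binucleated and 4n-top (higher Hoechst-height) for mononucleated tetraploid cells, but 4n-top came from a single round of sorting and still held binucleated cells. RNA was sequenced from 4 mice in 2n-whole, 4n-whole and 4n-bottom and from 3 mice (mice 2, 3 and 4) in 4n-top, giving 15 libraries with total counts between 22049498 and 42096421. The labels name no treatment of the mice.

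In the Hippo pathway the MST kinases, with the scaffold protein SAV1, activate the kinases LATS1 and LATS2. These phosphorylate YAP (from Yap1) and TAZ (from Wwtr1), which keeps them in the cytoplasm or leads to their breakdown. When unphosphorylated, YAP and TAZ enter the nucleus and bind TEAD factors at target genes such as Ccn1, Ccn2, Ankrd1 and Amotl2. In the liver the pathway is known for the control of organ size and hepatocyte identity, and cytokinesis failure with tetraploidy is known to activate LATS2 in cultured cells. Because the pathway acts largely through phosphorylation and location of proteins, mRNA levels do not measure its activity, and the targets are the nearest readout that RNA offers.

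The 250 bases before the start of the Ensembl canonical transcript of 3 target genes are printed to show the TEAD motif, since the targets serve as the readout of YAP and TAZ. The sequences were read from the GRCm39 genome with the starts in GENCODE M39 and run 5′ to 3′ on the strand of the gene. Capitals mark the TEAD motif GGAATG, or CATTCC where it lies on the other strand. The windows are chr3:145355739-145355988 (minus strand) for Ccn1, chr19:36097507-36097756 (minus) for Ankrd1 and chr9:102594617-102594866 (plus) for Amotl2, where other annotated transcripts start further upstream.
Ccn1: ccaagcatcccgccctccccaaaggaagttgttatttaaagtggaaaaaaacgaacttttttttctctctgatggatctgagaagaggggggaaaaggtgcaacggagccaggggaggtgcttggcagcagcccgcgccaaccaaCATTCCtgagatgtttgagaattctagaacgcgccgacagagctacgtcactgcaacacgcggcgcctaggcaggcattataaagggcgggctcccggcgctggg
Ankrd1: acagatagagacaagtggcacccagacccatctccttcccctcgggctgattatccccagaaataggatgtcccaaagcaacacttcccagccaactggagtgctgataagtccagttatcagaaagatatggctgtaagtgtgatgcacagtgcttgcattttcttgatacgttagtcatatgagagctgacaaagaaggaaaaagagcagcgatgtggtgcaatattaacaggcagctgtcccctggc
Amotl2: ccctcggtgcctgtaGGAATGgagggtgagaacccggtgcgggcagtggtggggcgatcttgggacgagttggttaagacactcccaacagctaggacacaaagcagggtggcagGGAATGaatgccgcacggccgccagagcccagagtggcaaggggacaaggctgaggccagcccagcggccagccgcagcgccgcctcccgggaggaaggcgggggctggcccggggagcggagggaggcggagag
The Amotl2 window held 2 matches, with first bases 235 and 135 bases upstream of the start, the Ccn1 window held 1 match on the other strand, 105 bases upstream, and the Ankrd1 window held none. Of the genes that are not targets, Yap1, Wwtr1 and Tead1 held 1 match each. Over all genes the motif was in 12.1% of 21751 promoter windows of this length. The AP-1 motif TGANTCA, searched on both strands, was in 6.17% of all windows and the CArG box of serum response factor in 1.40%, and neither was in any of the windows described. These matches describe letters in a window and are not measured binding sites.

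Expression is given as CPM, the count of a gene scaled to a common library size with TMM factors (trimmed mean of M-values, a correction for composition), and as CPM per kb of merged exons where genes are compared. Per kb, the mean level over all 15 libraries was 26.2 CPM per kb for Ccn1, 9.28 for Amotl2, 5.58 for Yap1, 3.19 for Lats1 and 1.44 for Tead1. It was 0.760 CPM per kb for Wwtr1, 0.605 for Sav1, 0.471 for Lats2, 0.103 for Ankrd1 and 0.0150 for Ccn2. Wwtr1, Sav1 and Lats2 stood next to each other with SDs over the 15 libraries of 0.0859, 0.146 and 0.171 CPM per kb, so that the order of Wwtr1 and Sav1 and of Sav1 and Lats2 was within their spread. Yap1 thus had the higher level of the 2 coactivator genes and Lats1 of the 2 LATS genes, and the targets ranged from the highest level (Ccn1) to the lowest (Ccn2).

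**Figure D1:**
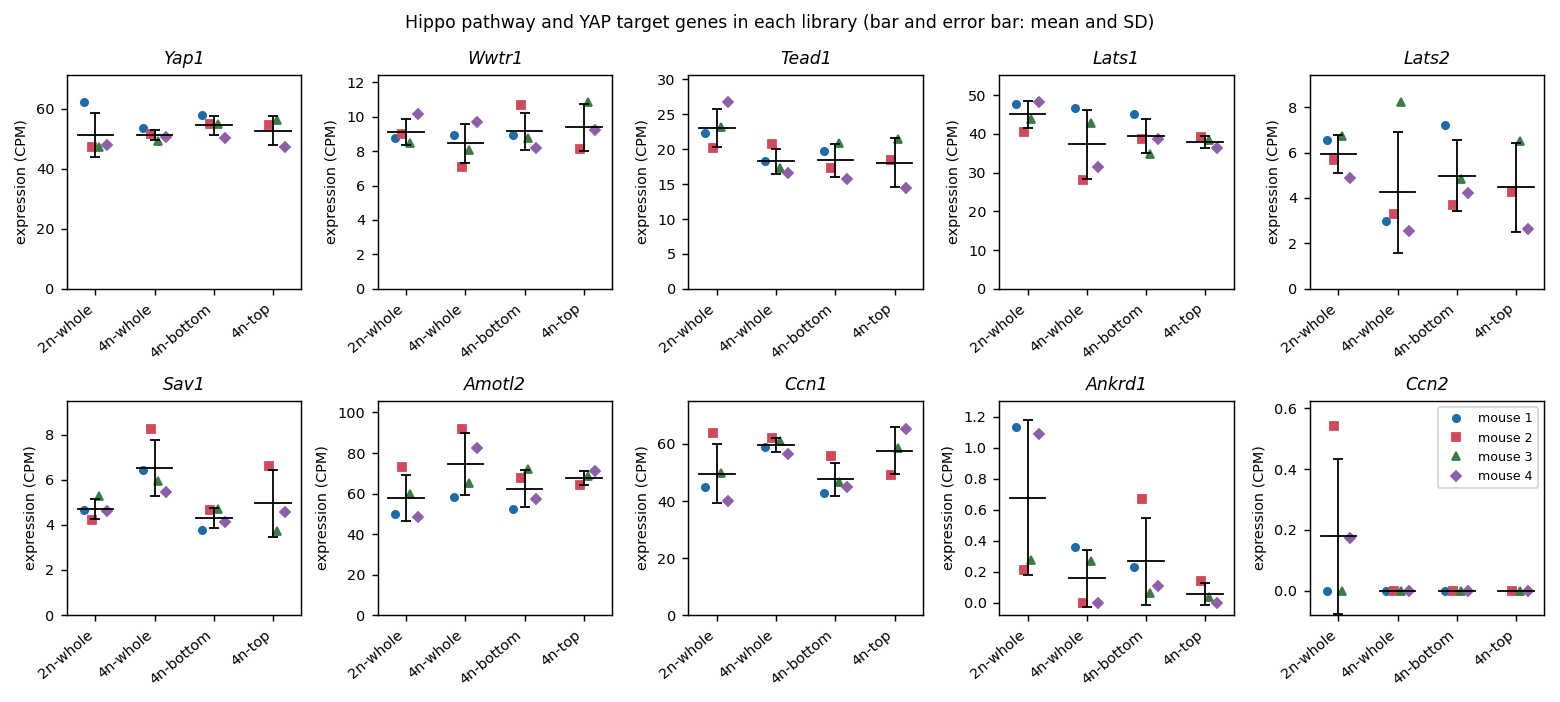
Expression in CPM (vertical axes, each with its own scale) of the 10 genes in the 15 libraries by population, with 1 symbol per mouse, a horizontal bar for the mean and an error bar for the SD. Yap1 and Wwtr1 lie at like levels in the 4 populations, Tead1 is highest in 2n-whole on average, and Ccn2 has counts in only 2 libraries, both 2n-whole.

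Cellular ploidy was addressed by setting 4n-whole against 2n-whole. At the thresholds of the study (adjusted p under 0.05, log2 fold change beyond 0.5 in either direction), edgeR's quasi-likelihood test with the mouse as a block called 0 of the 9 tested genes, against 607 of 17488 genes (3.47%). At an unadjusted p under 0.05, 6 of the 9 passed (Lats1, Lats2, Sav1, Tead1, Ccn1 and Amotl2), against 20.4% of all genes, and DESeq2 with the same block also gave 0 calls and 6 genes at an unadjusted p under 0.05. The 3 with higher values in 4n-whole were Sav1, Ccn1 and Amotl2, and the 3 with lower values were Lats1, Lats2 and Tead1. The genes of the kinase arm thus lay on both sides of 0. The same direction in all 4 mice was seen in 4 of the 9 (Amotl2 and Sav1 higher, Lats1 and Ankrd1 lower), against 22.7% of all genes. For Ankrd1 this rests on few counts: mouse 3 had 10 in 4n-whole and 8 in 2n-whole, lower only after scaling (0.266 and 0.278 CPM). Leaving out mouse 4, 0 of the 9 genes had an unadjusted p under 0.05. Without mouse 1 (8 genes tested), without mouse 2 or without the 4n-whole library of mouse 2 alone the number was 3. The comparisons of the populations share libraries, and each one's values are given side by side.

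Yap1 (chr9:7932000-8004661, minus strand), which encodes YAP, had 62.0, 47.3, 47.2 and 47.8 CPM in the 2n-whole libraries of mice 1 to 4. The 4n-whole libraries had 53.4, 51.5, 49.3 and 50.4 CPM in the same order. The 2n-whole library of mouse 1 stood above the others, and the populations overlapped. The log2 fold change of 4n-whole against 2n-whole was 0.01 ± 0.10 (SE), with a 95% interval from -0.19 to 0.21, and its sign turned under several alternative settings. A difference beyond 0.5 in either direction thus lay outside the interval.

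Wwtr1 (chr3:57363067-57483331, minus strand), which encodes TAZ, had 8.75, 8.99, 8.49 and 10.2 CPM in 2n-whole and 8.93, 7.10, 8.05 and 9.70 CPM in 4n-whole. The ranges overlapped, and 1 of 4 mice was higher in 4n-whole. This gave a log2 fold change of -0.11 ± 0.17 (SE) with an interval from -0.46 to 0.24. The mean was 9.15 ± 1.07 CPM in 4n-bottom (SD, n = 4) and 9.38 ± 1.37 CPM in 4n-top (SD, n = 3).

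Tead1 (chr7:112278522-112506014, plus strand) encodes a DNA-binding partner of YAP and TAZ. It had 22.3, 20.2, 23.2 and 26.7 CPM in 2n-whole. The values were 18.3, 20.8, 17.3 and 16.6 CPM in 4n-whole. The 4n-bottom libraries had 19.8, 17.2, 20.9 and 15.7 CPM, and the 4n-top libraries of mice 2, 3 and 4 had 18.4, 21.5 and 14.39 CPM. The means of the 3 tetraploid populations, between 18.1 and 18.4 CPM, lay below the mean of 23.1 CPM in 2n-whole, with overlapping libraries in each case. Against 2n-whole the log2 fold changes were -0.34 ± 0.14 (SE, edgeR adjusted p = 0.154) in 4n-whole, -0.34 ± 0.14 (adjusted p = 0.372) in 4n-bottom and -0.36 ± 0.16 (adjusted p = 0.365) in 4n-top. All 3 values share the 2n-whole libraries and missed the adjusted threshold. The level was lower than in 2n-whole in 3 of 4 mice in 4n-whole, 4 of 4 in 4n-bottom and 3 of 3 in 4n-top.

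Lats1 (chr10:7556736-7592226, plus strand) encodes a kinase that phosphorylates YAP and TAZ. It had 47.7, 40.6, 43.96 and 48.1 CPM in 2n-whole and 46.7, 28.2, 42.7 and 31.5 CPM in 4n-whole. The libraries overlapped, but each mouse was lower in 4n-whole than in 2n-whole, narrowly in mice 1 and 3 and more widely in mice 2 and 4. edgeR gave a log2 fold change of -0.29 ± 0.12 (SE), with an interval from -0.53 to -0.05 and an adjusted p of 0.154. All 4 mice were also lower in 4n-bottom (mean 39.4 ± 4.36 CPM, SD, n = 4) and all 3 in 4n-top (38.0 ± 1.54 CPM, SD, n = 3). The 4n-top libraries did not overlap with those of 2n-whole, against 9.21% of all genes without overlap. In 4n-bottom only mouse 1 (45.2 CPM), which has no 4n-top library here, lay above the lowest 2n-whole library. The library with the lowest Lats1 value, 4n-whole of mouse 2, also had the lowest total count. Without it the log2 fold change was -0.19 (adjusted p = 0.472).

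Lats2 (chr14:57926960-57995845, minus strand) encodes the other LATS kinase and is itself a known target of YAP. It had 6.53, 5.67, 6.71 and 4.88 CPM in 2n-whole and 2.99, 3.29, 8.21 and 2.53 CPM in 4n-whole. Mice 1, 2 and 4 were lower in 4n-whole and mouse 3 was higher, and the SD was 0.843 CPM in 2n-whole and 2.65 CPM in 4n-whole (n = 4 each). The log2 fold change was -0.59 ± 0.26 (SE), with an interval from -1.13 to -0.05 and an edgeR adjusted p of 0.194. Without mouse 3 it was -0.95 with an adjusted p of 0.0387, the only call of any of the 9 genes in this comparison under the settings tried. Lats2 shares annotated bases with a protein-coding gene on the same strand, and how reads in shared bases were counted is not given in the sources used here. The annotated spans of Lats1 and Sav1 overlap protein-coding genes on the other strand (Pcmt1 and Atl1). Whether counting took strand into account is not given either.

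Sav1 (chr12:70003735-70033975, minus strand), the gene of the scaffold that joins MST and LATS kinases, had 4.66, 4.19, 5.29 and 4.63 CPM in 2n-whole. The 4n-whole libraries had 6.44, 8.26, 5.94 and 5.44 CPM, all above the highest 2n-whole library. Sav1 was the only 1 of the 9 tested genes whose libraries did not overlap between these populations, against 5.8% of all genes. Its log2 fold change was 0.45 ± 0.22 (SE), with an interval from 0.01 to 0.89 and an edgeR adjusted p of 0.232, and it was 0.29 (adjusted p = 0.709) without mouse 2. The 4n-bottom libraries (3.77, 4.65, 4.71 and 4.12 CPM) and 4n-top libraries (6.60, 3.71 and 4.57 CPM for mice 2, 3 and 4) overlapped with those of 2n-whole. Sav1 counts were between 95 and 286 per library, which limits their precision.

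**Figure D2:**
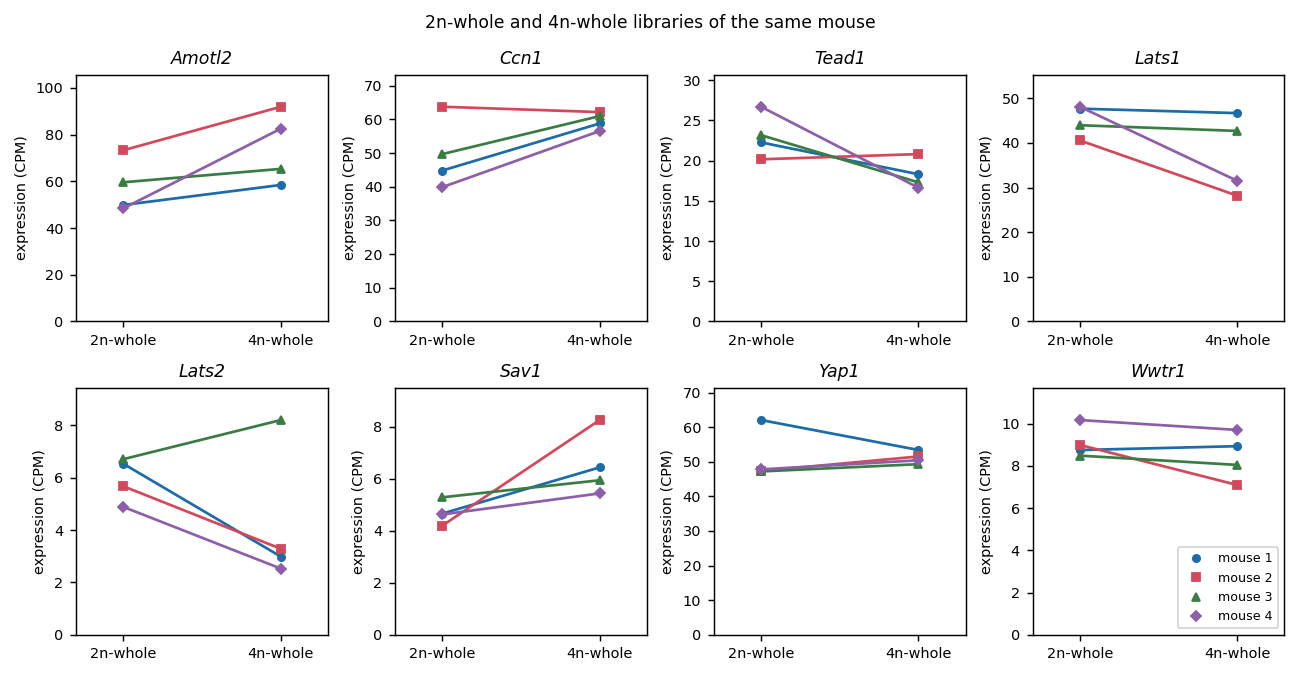
Expression in CPM (vertical axes from 0) of 8 genes in the 2n-whole and 4n-whole libraries, with a line joining the libraries of each mouse. Amotl2 and Sav1 are higher in 4n-whole in all 4 mice and Lats1 is lower in all 4, while Lats2 is higher in mouse 3 and lower in the other 3 mice.

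Amotl2 (chr9:102593836-102610617, plus strand) encodes an angiomotin-family protein that binds YAP, and is induced by YAP in turn. It had 49.9, 73.3, 59.6 and 48.5 CPM in 2n-whole and 58.5, 92.0, 65.4 and 82.6 CPM in 4n-whole. The libraries overlapped, but all 4 mice were higher in 4n-whole, by 1.10-fold in mouse 3 to 1.70-fold in mouse 4. The log2 fold change was 0.36 ± 0.11 (SE), with an interval from 0.13 to 0.60. Its edgeR adjusted p of 0.060 was the lowest of the 9 genes, and it ranged from 0.0252 to 0.506 over the alternatives. Without mouse 4 the log2 fold change was 0.23. The 4n-bottom libraries lay at 52.6, 67.8, 72.3 and 57.2 CPM, those of 4n-top at 64.1, 68.5 and 71.0 CPM (mice 2, 3 and 4), with log2 fold changes against 2n-whole of 0.12 ± 0.11 and 0.16 ± 0.13 (SE).

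Ccn1 (chr3:145352720-145355738, minus strand), which encodes a secreted matricellular protein and is a direct YAP target, had 44.8, 63.8, 49.7 and 39.9 CPM in 2n-whole. The 4n-whole libraries lay close together at 58.8, 62.2, 61.0 and 56.5 CPM. Mice 1, 3 and 4 were higher in 4n-whole and mouse 2 was slightly lower. The log2 fold change was 0.28 ± 0.12 (SE), with an interval from 0.03 to 0.52 and an edgeR adjusted p of 0.177. The 4n-bottom libraries had 42.8, 55.7, 46.7 and 45.1 CPM, all below the lowest 4n-whole library, and the 4n-top libraries had 49.1, 58.6 and 65.3 CPM.

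Ankrd1 (chr19:36089352-36097506, minus strand), which encodes an ankyrin-repeat protein and is a YAP target, stood near the detection floor, taken as 3 counts, which was 0.0693 to 0.120 CPM over the libraries. The counts were 46, 7, 8 and 38 in 2n-whole, 14, 0, 10 and 0 in 4n-whole, 8, 28, 2 and 4 in 4n-bottom, and 6, 1 and 0 in 4n-top for mice 2, 3 and 4. All 3 4n-top libraries lay below the lowest 2n-whole library (9.21% of all genes had no overlap), and the other populations overlapped with 2n-whole. The log2 fold changes against 2n-whole were -2.32 ± 1.37 (SE, edgeR adjusted p = 0.363) in 4n-whole and -3.57 ± 1.64 (adjusted p = 0.408) in 4n-top. With libraries at 0, these depend on how zeros are handled in the fit and are no bounds.

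Ccn2 (chr10:24471333-24474900, plus strand), the gene of another matricellular protein and a widely used YAP target, had 18 counts in the 2n-whole library of mouse 2 and 6 in that of mouse 4. It was at 0 in the other 13 libraries, and a count of 0 allows up to 0.0693 to 0.120 CPM, depending on the library. Ccn2 did not pass the filter on low counts and was not tested. Both its readings were in diploid cells, but 2 of 4 diploid libraries were also at 0, so a difference between populations was not detectable at this depth. The floors cover counting error only. Among counts of 1 to 10, 74.2% to 81.4% per library were even numbers, so that a count of 3 stands for fewer than 3 fragments if both reads of a pair were counted.

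The number of nuclei at equal DNA content was addressed by setting 4n-top against 4n-bottom. The study holds that the incomplete purity of 4n-top, which still held binucleated cells, likely lowered the differences measured. The values below thus describe the sorted populations and set no bounds on the effect of the number of nuclei. edgeR called 0 of the 9 tested genes at both thresholds, against 2 of 17488 genes (0.0114%), and 0 of the 9 had an unadjusted p under 0.05, against 2.79% of all genes. DESeq2 with the block also called 0 and gave 0 at an unadjusted p under 0.05. The libraries of 0 of the 9 genes were without overlap, against 3.15% of all genes. Ankrd1, near the detection floor, was the only 1 of the 9 with the same direction in all 3 mice with both populations, against 22.3%. In the 2 coactivator genes the log2 fold change of 4n-top against 4n-bottom was 0.0018 ± 0.11 (SE) for Yap1, with an interval from -0.22 to 0.22, and 0.03 ± 0.19 for Wwtr1, from -0.36 to 0.41. In the kinase genes it was 0.02 ± 0.13 for Lats1, from -0.24 to 0.29, and -0.19 ± 0.29 for Lats2, from -0.79 to 0.41. Sav1 had 0.17 ± 0.24, from -0.32 to 0.65, and Tead1 had -0.02 ± 0.15, from -0.34 to 0.30. Of the targets, Amotl2 had 0.05 ± 0.13, from -0.21 to 0.31, and Ccn1 had 0.26 ± 0.13, from -0.01 to 0.53. Intervals for Yap1, Lats1, Tead1, Wwtr1 and Amotl2 lay within 0.5 of 0, and those for Lats2, Sav1 and Ccn1 did not, so that for Lats2, Sav1, Ccn1 and Ankrd1 a difference as large as the fold limit could not be told from 0. The signs of the values near 0 turned under several settings.

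**Figure D3:**
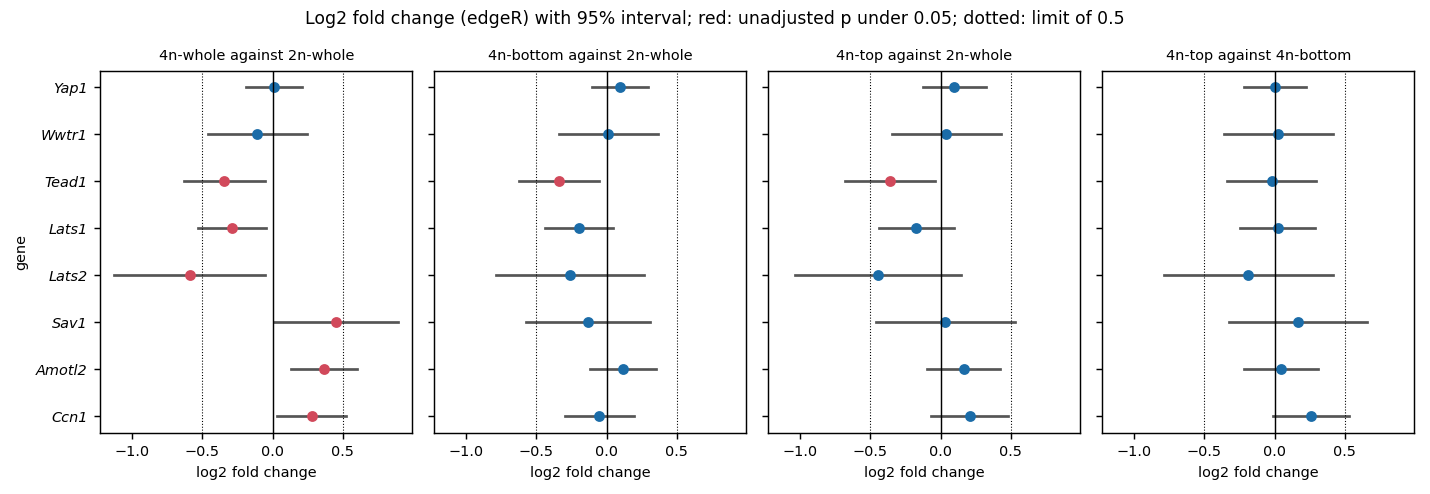
Log2 fold change (horizontal axis) of 8 genes in 4 comparisons, with the edgeR 95% interval as a line, red points for an unadjusted p under 0.05, blue for the others, and dotted lines at the limit of 0.5. Ankrd1 (interval off this scale) and Ccn2 (not tested) are left out. The 6 red points of 4n-whole against 2n-whole lie on both sides of 0, and no point of 4n-top against 4n-bottom is red.

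Against 2n-whole, 4n-bottom gave 0 calls among the 9 genes (0.463% of all genes were called) and 1 gene at an unadjusted p under 0.05, Tead1, against 10.2% of all genes. At an adjusted p under 0.05 alone 0 of the 9 passed (0.492% of all genes), 0 were without overlap (3.52%), and 2, Lats1 and Tead1, were lower in all 4 mice (19.6% of all genes had 1 direction in all). 4n-top against 2n-whole gave 0 calls (0.961% of all genes) and 2 genes at an unadjusted p under 0.05, Tead1 and Ankrd1, against 11.3%. With no fold limit 0 of the 9 passed (1.06% of all genes). The libraries of 2 genes, Lats1 and Ankrd1, were without overlap (9.21% of all genes), and 4 genes, Lats1, Lats2, Tead1 and Ankrd1, were lower in all 3 mice (34.1%). Ankrd1 lay near the detection floor there, with 6, 1 and 0 counts in 4n-top beside 7 in the lowest 2n-whole library. Between 4n-whole and 4n-bottom there were 0 calls (0.00572% of all genes), and 3 genes had an unadjusted p under 0.05, Ccn1, Sav1 and Amotl2, against 5.57%. Their log2 fold changes were 0.33 ± 0.12 (SE), 0.58 ± 0.22 and 0.25 ± 0.11, all with higher values in 4n-whole. The Ccn1 and Sav1 libraries of the 2 populations did not overlap, against 1.64% of all genes without overlap, and both were higher in all 4 mice, against 11.5%. Between 4n-whole and 4n-top there were 0 calls (0% of all genes) and 0 genes at an unadjusted p under 0.05, against 4% of all genes. None of the 9 genes was without overlap there (3.31% of all genes), and Sav1 alone had 1 direction in all 3 mice, higher in 4n-whole (27.1%). DESeq2 with the block called 0 of the 9 genes in each of these 4 comparisons.

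In a test of any difference among the 4 populations, edgeR called 0 of the 9 genes at an adjusted p under 0.05, against 1.95% of all genes, and 3 had an unadjusted p under 0.05, against 13% of all genes. These 3 were Amotl2 (adjusted p = 0.298), Ccn1 (adjusted p = 0.314) and Tead1 (adjusted p = 0.361). Among the 4 mice, edgeR called 1 of the 9 genes, Lats2 (adjusted p = 0.0375), against 19.2% of all genes, and 2 had an unadjusted p under 0.05, Lats2 and Amotl2, against 30.9%. Over its libraries Lats2 had a mean of 5.57 CPM in mouse 1, 4.23 in mouse 2, 6.57 in mouse 3 and 3.56 in mouse 4, so that mouse 3 was highest and mouse 4 lowest. Amotl2 was next (adjusted p = 0.0539), with means of 53.6 CPM in mouse 1 and 74.3 in mouse 2. The call of Lats2 was lost, and Amotl2 called in its place, when mouse 3 or mouse 4 was left out.

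The wider pathway was described with lists of genes by role. The kinase cassette has 7 genes, all tested, of which 3 (Lats1, Lats2 and Sav1) are among the 10. edgeR called 0 of the 7 between 4n-whole and 2n-whole at both thresholds (3.47% of all genes), and the median log2 fold change was -0.29, beside -0.01 over all genes tested. At an adjusted p under 0.05 with no fold limit (5.47% of all genes), Mob1b passed. Mob1b encodes an adaptor that LATS kinases need, and its mean was 42.6 ± 9.38 CPM in 4n-whole and 57.1 ± 1.99 CPM in 2n-whole (SD, n = 4 each). Its log2 fold change was -0.44 ± 0.12 (SE, edgeR adjusted p = 0.0266), lower in 4 of 4 mice with no overlap. Of all genes, 22.7% had 1 direction in all 4 mice and 5.8% had no overlap. Its paralog Mob1a had -0.41 ± 0.14 (adjusted p = 0.0777), also lower in 4 of 4 mice. Reads from bases that the paralogs share may be split between them or lost. The MST kinase genes Stk3 and Stk4 had -0.03 ± 0.19 and -0.04 ± 0.12. The summed level of the cassette was 170 to 182 CPM in 2n-whole, 117 to 174 CPM in 4n-whole, 137 to 172 CPM in 4n-bottom and 144 to 157 CPM in 4n-top. All 3 4n-top libraries thus lay below the lowest 2n-whole library. In 4n-whole and 4n-bottom only the libraries of mouse 1 (174 and 172 CPM) lay above it, and mouse 1 has no 4n-top library here.

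Among coactivators and TEAD partners 5 of 10 listed genes were tested. In 4n-whole against 2n-whole 0 were called (3.47% of all genes), and the median log2 fold change was 0.01. Tead3, the other TEAD gene that was tested, had 9.34 ± 0.982 CPM in 2n-whole, 12.42 ± 1.92 in 4n-whole and 13.7 ± 2.26 in 4n-bottom (SD, n = 4 each), and 12.0 ± 1.12 CPM in 4n-top (SD, n = 3). Its log2 fold changes against 2n-whole were 0.41 ± 0.16 (SE, edgeR adjusted p = 0.123) in 4n-whole, 0.55 ± 0.15 (adjusted p = 0.149) in 4n-bottom and 0.31 ± 0.17 (adjusted p = 0.511) in 4n-top. Every mouse was higher than in 2n-whole in 4n-whole, 4n-bottom and 4n-top. Of all genes, 22.7%, 19.6% and 34.1% had 1 direction in all mice in these comparisons, which share the 2n-whole libraries. Tead1 was lower than in 2n-whole on average in each, and neither gene passed the adjusted threshold. Tead2 and Tead4 averaged 0.0407 and 0.0868 CPM over the 15 libraries and were not tested.

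**Figure D4:**
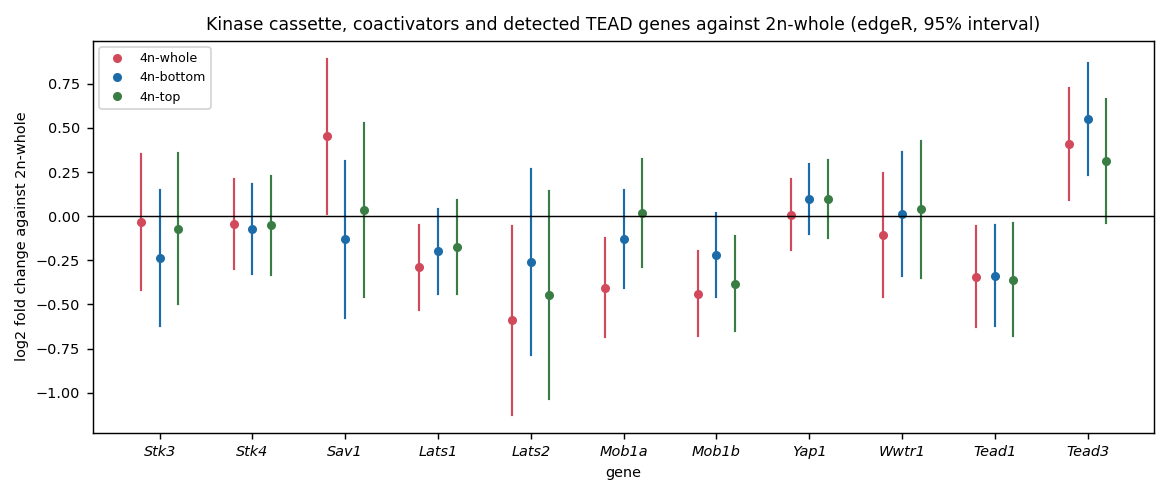
Log2 fold change against 2n-whole (vertical axis, edgeR, with 95% intervals as lines) of the kinase cassette, the coactivator genes and the detected TEAD genes in 4n-whole (red), 4n-bottom (blue) and 4n-top (green). Tead1 is near -0.34 and Tead3 between 0.31 and 0.55 in the 3 populations, and Mob1b is below 0 in each. The 3 comparisons share the 2n-whole libraries.

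Of 28 listed upstream regulators 24 were tested and 0 were called (3.47% of all genes), with a median log2 fold change of 0.08. At an adjusted p under 0.05 with no fold limit 1 passed, Taok2, which encodes a kinase that acts on MST kinases. Taok2 had 47.5 ± 7.14 CPM in 2n-whole and 66.8 ± 11.2 CPM in 4n-whole (SD, n = 4 each), with a log2 fold change of 0.50 ± 0.12 (SE, edgeR adjusted p = 0.0122), just under the fold limit, and higher in 4 of 4 mice (22.7% of all genes had 1 direction in all 4). Of the 22 genes of a YAP and TAZ target signature, which includes Ccn1, Ccn2, Ankrd1, Amotl2 and Lats2, 16 were tested and 0 were called (3.47% of all genes). Summed over the 22, the level in mice 1 to 4 was 223, 300, 254 and 221 CPM in 2n-whole. In 4n-whole it was 265, 324, 275 and 289 CPM, higher in each mouse, with overlapping ranges. The sum was 237 to 286 CPM in 4n-bottom and 263 to 280 CPM in 4n-top, and sums were not tested. At an unadjusted p under 0.05, 5 of the 16 were higher and 2 lower in 4n-whole, against 20.4% of all genes, and the median over the 16 was -0.11, beside -0.01 over all genes tested. Outside the 10 genes those higher were Nuak2 (0.42 ± 0.13, SE, edgeR adjusted p = 0.0647), Gadd45a (0.32 ± 0.12, adjusted p = 0.1) and Nt5e (1.13 ± 0.40, adjusted p = 0.0965), and the 1 lower was Axl (-2.52 ± 1.12). Mob1b and Tead3 are named as paralogs in the lists, whereas Taok2, Nuak2, Gadd45a, Nt5e and Axl were named after their values were seen. In 4n-top against 4n-bottom 0 genes of these 4 lists were called, against 0.0114% of all genes. At an unadjusted p under 0.05 the number was also 0, against 2.79% of all genes.

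Ccn1 and Ankrd1 also respond to serum response factor and to tissue dissociation. Of 25 immediate early and dissociation genes 22 were tested, and their median log2 fold change in 4n-whole against 2n-whole was 0.20, beside -0.01 over all genes tested. At an adjusted p under 0.05 with no fold limit 6 of the 22 passed, against 5.47% of all genes, and at an unadjusted p under 0.05, 8 were higher and 2 lower, against 20.4% of all genes. Past both thresholds Klf6 fell (log2 fold change -0.68 ± 0.16, SE, edgeR adjusted p = 0.0120) and Hspa1b rose (0.86 ± 0.21, adjusted p = 0.0146). The paralog Hspa1a was tested and not called, and reads from bases shared with Hspa1b may be split between them or lost. The summed level of the immediate early and dissociation genes was 2306 to 3244 CPM in 2n-whole, 2682 to 4426 in 4n-whole, 2427 to 3419 in 4n-bottom and 2794 to 3341 in 4n-top. The highest library was 4n-whole of mouse 2, which also had the highest Amotl2 and Sav1 values. Of 12 actin and serum response factor targets 7 were tested, and Tpm4, a tropomyosin gene, fell in 4n-whole (-0.65 ± 0.18, adjusted p = 0.0349). The part of these genes in the values above was not tested.

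The labelled cell type was borne out by hepatocyte markers, which summed to 84378 to 115902 CPM per library. Lists of other liver cells were low, and bulk RNA cannot tell fewer cells of a type from less RNA per cell. Endothelial markers, all 12 tested, summed to 22.7 to 35.8 CPM in 2n-whole, 7.65 to 41.1 in 4n-whole, 7.46 to 36.2 in 4n-bottom and 6.97 to 27.2 in 4n-top, led by Ptprb (5.68 CPM over all libraries) and Stab2 (5.21). 1 of the 12, Ptprb, fell in 4n-whole (log2 fold change -1.03, edgeR adjusted p = 0.0387). Cholangiocyte markers, 6 of 10 tested, summed to 55.5 to 68.3 CPM in 2n-whole, 28.6 to 52.1 in 4n-whole, 37.9 to 56.2 in 4n-bottom and 33.0 to 49.8 in 4n-top. Sox9, which hepatocytes can also express, averaged 24.1 CPM over all libraries, while Krt19 averaged 0.272 CPM. 2 of the 6, Sox9 (-0.62) and Spp1 (-2.81), fell in 4n-whole. Kupffer cell markers, 8 of 10 tested and led by Csf1r (0.612 CPM) and Clec4f (0.566), summed to 0.715 to 10.0 CPM in 2n-whole and 0.625 to 4.34 CPM in the tetraploid libraries. Stellate cell markers, 7 of 12 tested and led by Reln (2.26 CPM) and Ecm1 (0.524), summed to 4.13 to 7.27 and 2.23 to 5.92 CPM, with 0 called in both lists.

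Mesothelial and lymphocyte markers reached at most 0.765 and 1.32 CPM in any library, led by Msln (0.123 CPM) and Cd8a (0.0827), with Upk3b at 0 in all 15 and none tested. The 2n-whole library of mouse 2, with 18 Ccn2 counts, had the highest endothelial sum of its population. It also had the lowest stellate sum (4.13 CPM) and a mesothelial sum of 0. That of mouse 4, with 6 Ccn2 counts, had the highest Kupffer sum, but its endothelial sum (23.6 CPM) was below those of mice 1 and 2. Of 10 pericentral markers all 10 rose in 4n-whole, with sums of 697 to 967 CPM in 2n-whole and 1067 to 3372 CPM in 4n-whole, and of 10 periportal markers 3 fell (Cyp2f2, Hsd17b13 and Aldh1b1). The part of other cell types and of zonation in the values of the 10 genes was not tested.

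**Figure D5:**
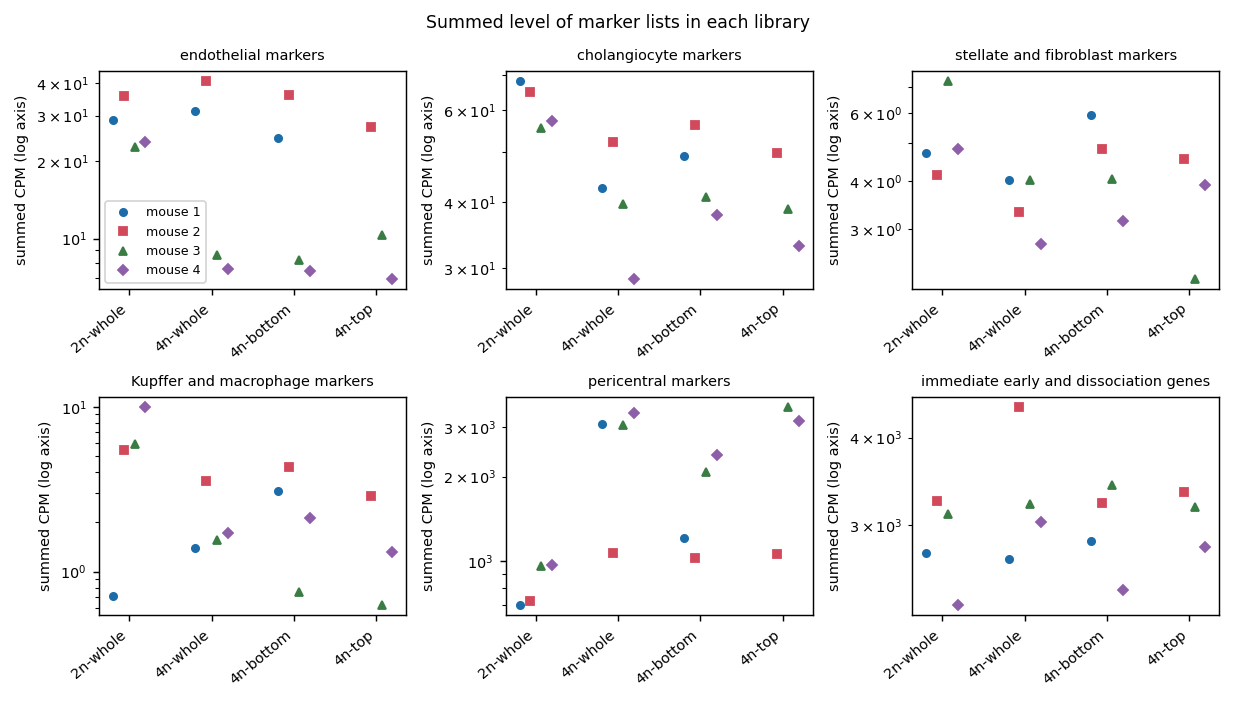
Summed CPM (log axes) of 6 gene lists in the 15 libraries by population, with 1 symbol per mouse. Pericentral sums are lowest in 2n-whole (697 to 967 CPM), endothelial sums are below 11 CPM in the tetraploid libraries of mice 3 and 4, and immediate early genes are highest in 4n-whole of mouse 2 (4426 CPM).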

How the data were processed

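The authors aligned reads with STAR 2.7.11a to GRCm39 and counted genes with featureCounts (Subread), per the labels and the study's methods, and deposited raw counts per gene before any batch adjustment. The strand setting, the annotation, and the handling of read pairs and shared bases are not given in the sources used here. RNA libraries were made with a SMART-Seq Stranded kit. The labels name the mouse of each library, and same-numbered libraries are of 1 mouse. The mouse was a block because the study adjusted its counts for individual mice and the labels name them. Residuals of same-mouse libraries correlated positively in all 21 pairs (mean r 0.158, 0.0845 to 0.227). Pairs of different mice were not compared.

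Counts were tested with edgeR 4.0.16 in R 4.3.3: TMM scaling, filterByExpr (minimum count 10, minimum total 15; 17488 genes kept), a quasi-likelihood fit with population and mouse over all 15 libraries, and Benjamini-Hochberg adjustment over all genes tested. Intervals are at 95% from the fit. Calls needed an adjusted p under 0.05 with a log2 fold change beyond 0.5 in either direction, or an adjusted p under 0.05 alone for tests among populations or mice. Total counts were 22049498 to 42096421. Alternatives were no block, DESeq2 1.42.0 with the block, ComBat-seq (sva 3.50.0) then DESeq2, DESeq2 size factors, no filter, the compared populations only, no fold limit, and leaving out each mouse. Leaving out 1 shallow library and halving the counts were added after the data were seen. Scripts were tested on simulated data. The 10 genes and all gene lists were chosen with earlier results of these data known. Named outside them were paralogs, genes called in a list, each marker list's most abundant genes and those at 0, the genes most like the 3 with the smallest p among populations, and 5 genes (Taok2, Nuak2, Gadd45a, Nt5e and Axl) named after their values were seen. Exon lengths, starts and promoters are from GENCODE M39 on GRCm39. The study left out a 4n-top library of mouse 1 for poor RNA quality, and it was not analysed here. Some items of these lists and sequences are not reported here.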

Additional observations from a re-analysis of the deposited data

Results flagged for a closer look

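In 28 groups of 4 libraries (each gene in 2n-whole, 4n-whole and 4n-bottom, without the tetraploid groups of Ccn2, which were at 0), the distance of the highest or lowest library to its nearest neighbour was set against the range of the group, and 2 groups passed Dixon's critical value at the 95% level. Chance passes about 1 in 20 groups. Yap1 in the 2n-whole library of mouse 1 was at 62.0 CPM, with the nearest other library at 47.8 CPM and a ratio of gap to range of 0.96. Lats2 in the 4n-whole library of mouse 3 was at 8.21 CPM, with the nearest other library at 3.29 CPM and a ratio of 0.87.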

How the results depend on the processing

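The number of genes called among the 10, of which 8 to 10 were tested depending on the alternative, was as reported in 94 of 98 combinations of comparison and alternative. It was 1 in 4n-whole against 2n-whole without mouse 3 (range 0 to 1 over mice left out; Lats2), 1 among the 4 populations without mouse 2 (0 to 1; Ccn1), and 2 (Lats2 and Amotl2) among the 4 mice with DESeq2 and with no filter. Without mouse 3 or mouse 4 the number among the mice stayed 1, but the gene was Amotl2 in place of Lats2.

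Fold changes of single genes were recomputed in 4n-whole against 2n-whole and 4n-top against 4n-bottom alone, not in the other 4 comparisons. They kept their direction and side of the threshold in 178 cases. In 6 the gene newly passed an adjusted p of 0.05, all in 4n-whole against 2n-whole: with ComBat-seq then DESeq2, Lats1 (-0.32, adjusted p = 0.0407), Tead1 (-0.39, 0.0454) and Amotl2 (0.37, 0.0252); with no filter, Amotl2 (0.38, 0.0255); and without mouse 3, Lats2 (-0.95, 0.0387) and Amotl2 (0.43, 0.0282). The sign turned in 28, each with a value from -0.19 (Lats2) to 0.17 (Sav1) in the report. For Yap1 in 4n-whole against 2n-whole the values were -0.0027 (DESeq2), -0.0020 (size factors) and -0.0062 (halved counts), from -0.034 to 0.085 leaving out a mouse, and -0.0040 without the 4n-whole library of mouse 2. In 4n-top against 4n-bottom, Yap1 had -0.047 (no replicate block), -0.00066 (DESeq2), -0.0070 (ComBat-seq), -0.00072 (size factors), -0.0018 (no filter), -0.018 (compared populations only) and -0.0026 (halved counts), and -0.024 to 0.046 leaving out a mouse. With no replicate block Lats1 had -0.052. With the compared populations only, Lats2 had 0.00046 and Tead1 0.0056. Leaving out a mouse gave -0.12 to 0.21 for Wwtr1, -0.0082 to 0.074 for Lats1, -0.40 to 0.029 for Lats2, -0.030 to 0.38 for Sav1, -0.081 to 0.048 for Tead1 and -0.082 to 0.12 for Amotl2. The cause was not tested.

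Over all genes, calls in 4n-whole against 2n-whole numbered 607, 40 with no replicate block, 814 with DESeq2, 1160 with ComBat-seq then DESeq2, 305 with the compared populations only, and 244 (without mouse 4) to 1025 (without mouse 3). In 4n-top against 4n-bottom they numbered 2, and 0 to 49 over the alternatives. Without the block the number of the 9 genes called stayed 0 in every comparison of populations. Depth limits Ankrd1, Ccn2, Tead2 and Tead4. With the compared populations only, Ankrd1 did not pass the filter. P-values of the main fit rest on the spread left after the population and mouse terms, in libraries of these mice alone.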

Other observations

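For the 3 genes with the smallest p among the populations, the genes with the most similar pattern were found by Pearson's r over the 15 libraries. The effect of the mouse, fitted together with the population, was removed first, and differences between populations were kept. The libraries share depth, mouse and population, and these values are a description. The nearest to Amotl2 were Kank1 (r = 0.94), Gm57201 (0.93) and Dhx38 (0.93), beside a 95th percentile over all genes of 0.67. The nearest to Ccn1 were Map3k7 (r = 0.91), which encodes the kinase TAK1, Gm36419 (0.89) and Gm12020 (0.89), beside 0.50. The nearest to Tead1 were Pik3c2b (r = 0.92), mt-Atp8 (0.90) and Iqsec1 (0.90), beside 0.55. Gm12020 and mt-Atp8 averaged 0.170 and 0.671 CPM, so their patterns rest on few counts.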
